A study of Homo sapiens with 3 samples.

Results

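The 10 genes described here encode secreted ligands of the BMP and TGF-beta branches (BMP2, BMP4, BMP6, TGFB1 and TGFB2), proteins that hold such ligands back or modify their action outside the cell (NOG, CER1 and BMPER), a decoy receptor (BAMBI) and a protein that stores latent TGF-beta in the matrix (LTBP1). They were taken by gene symbol, and all 10 had a row among the 18345 genes with a value in each library. RNA-seq was done on cells differentiated from the established human embryonic stem cell line H1 and sorted as CD31+CD34+ cells that the labels call HEPs. A further sort by surface CD105 gave 3 populations, CD105neg, CD105low and CD105high, with 1 library each. All 3 came from the same line and followed the same culture protocol. It used activin A (40 ng/ml) and BMP4 (50 ng/ml) for 2 days, then VEGF (40 ng/ml) and bFGF (50 ng/ml) for 3 days. The labels nevertheless date the cells to day 4. The populations therefore share an exposure to recombinant BMP4 protein, which RNA-seq does not measure, and none of them was left without it.

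BMPs and TGF-betas are secreted dimers that bring together type I and type II serine/threonine kinase receptors, which then phosphorylate SMAD proteins. Noggin and cerberus bind ligands and keep them from their receptors, BAMBI resembles a type I receptor without a kinase, and TGF-beta is secreted in a latent form that LTBP proteins tether to the matrix. In the embryo, BMP signals pattern the mesoderm from which endothelium and blood arise. CD105 is endoglin (gene ENG), which binds BMP9, BMP10 and TGF-beta complexes on endothelial cells.

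The libraries are described before the members because every comparison rests on them. The deposited values, treated as FPKM (fragments scaled to the length of the transcript and the size of the library), summed to between 265618 and 289229 per library, and 11343 genes reached 1 FPKM in at least 1 library and are called measured. The gene for the sorted protein, ENG, followed the sort (2.12 FPKM in CD105neg, 8.56 in CD105low, 13.8 in CD105high), although the value column of the CD105neg library bears a name that reads as CD105 positive. CD34 and PECAM1 (CD31) were at or above 20.99 FPKM in every library, and all 8 endothelial marker genes examined were measured. With 1 library per population there is no spread between replicates. No test was possible, no p-value is given, and each statement compares libraries. In cells sorted in bulk, fewer cells of a type and less RNA per cell cannot be told apart. A gene is counted as higher or lower where the FPKM values plus 1 differ by at least 1.5-fold, and log2 ratios refer to the value plus 1, which understates the difference of low genes.

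The 2 members with the greatest increase from CD105neg to CD105high were BMP6 and CER1, and their start regions are shown for that reason. RefSeq windows (build GRCh38.p14) were matched by symbol for 8 of the 10 members, not for BMP2 and NOG. Each sequence gives the 250 bases before the annotated start, 5′ to 3′ on the gene's own strand, at chr6:7725849-7726098 (plus strand) for BMP6 and at chr9:14722734-14722983 (minus strand) for CER1. Capitals mark any match, on either strand, to the SMAD-binding letters CAGAC, the GC-rich letters GGCGCC of BMP response elements, or the TATA letters TATAAA.
BMP6: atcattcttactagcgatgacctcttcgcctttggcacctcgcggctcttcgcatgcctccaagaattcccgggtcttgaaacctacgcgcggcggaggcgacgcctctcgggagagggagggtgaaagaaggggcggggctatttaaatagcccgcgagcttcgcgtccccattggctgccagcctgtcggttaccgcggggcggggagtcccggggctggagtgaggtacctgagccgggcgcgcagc
CER1: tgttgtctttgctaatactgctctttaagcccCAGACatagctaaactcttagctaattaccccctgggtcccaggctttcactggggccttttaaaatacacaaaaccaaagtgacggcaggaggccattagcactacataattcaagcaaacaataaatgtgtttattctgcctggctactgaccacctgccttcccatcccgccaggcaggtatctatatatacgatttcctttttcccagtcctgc

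The windows of these members differ in base composition. The BMP6 window is 64.4% G or C with 26 CG dinucleotides and holds none of the 3 letter strings, and the CER1 window is 45.2% G or C with 3 CG dinucleotides and holds CAGAC in 1 place. Over all 35116 such windows the median is 58.0% G or C, CAGAC or its reverse complement occurs in 38.0%, GGCGCC in 16.4% and TATAAA or its reverse complement in 10.7%. Among the other members, the BAMBI window, at 81.2% G or C, holds GGCGCC in 3 places and CAGAC in 2. CAGAC also occurs in windows of BMP4, LTBP1 and TGFB2, and GGCGCC in windows of BMP4 and BMPER. TGFB2 is, of the 8 matched members, the one whose window holds TATAAA. A match is a run of letters in this stretch and was not tested for binding, and no matches overlap in the printed windows.

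The levels of the 10 members in the 3 libraries fell into 3 patterns. BMP6, NOG and CER1 were lowest in CD105neg, intermediate in CD105low and greatest in CD105high. BMP2, BMPER and BAMBI had the opposite order, and BMP4, TGFB1, TGFB2 and LTBP1 had their greatest value in CD105low. Among all measured genes, 17.6% had the ascending order, 36.4% the descending order and 35.1% their greatest value in CD105low, so each order is common.

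**Figure D1:**
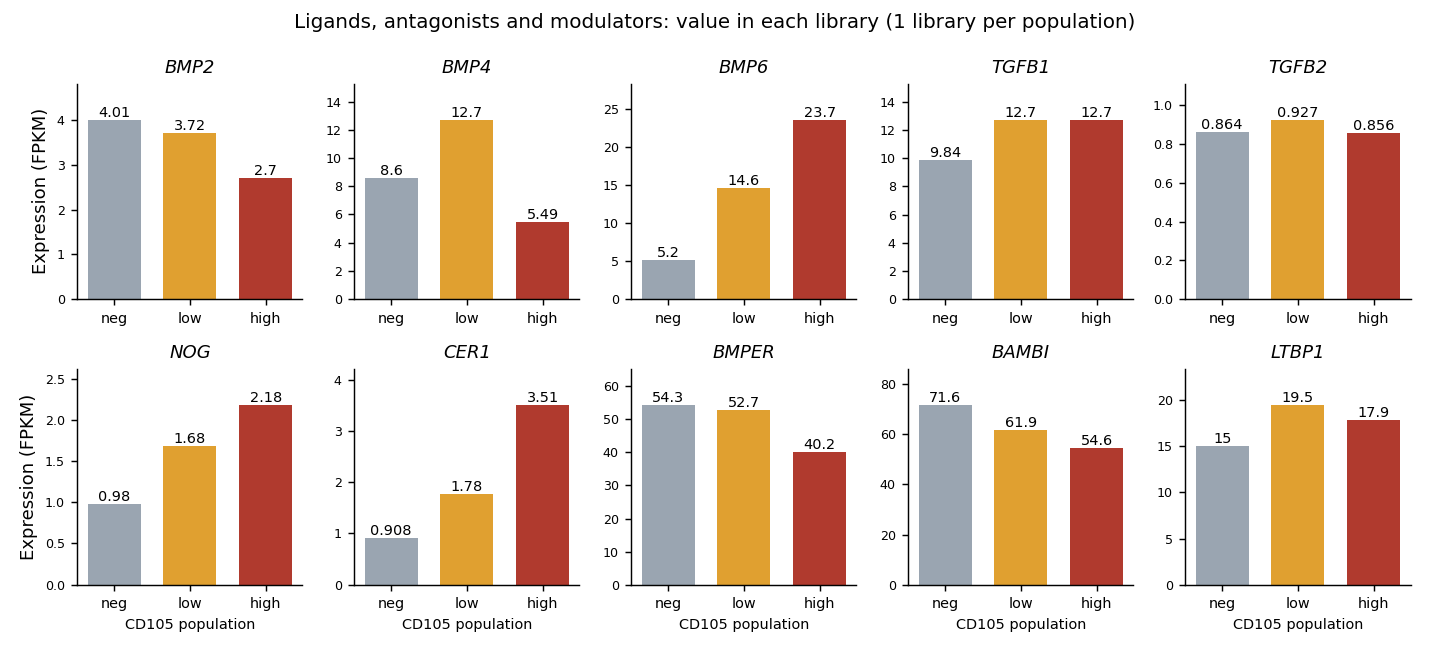
Expression in FPKM (vertical axes, each starting at 0 with its own scale) of the 10 genes in the CD105neg, CD105low and CD105high libraries, 1 bar per library with its value printed and no error bars, since each population has 1 library. BMP6 goes from 5.20 to 23.7 FPKM, BMP4 is greatest in CD105low at 12.7 FPKM, and BAMBI descends from 71.6 to 54.6 FPKM.

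Among the BMP ligands, BMP6 differed most. BMP6 (ENSG00000153162.8), a ligand that endothelial cells of other tissues are known to secrete and that sets hepcidin levels in the liver, had 5.20 FPKM in the CD105neg library, 14.6 FPKM in CD105low and 23.7 FPKM in CD105high. The plain ratio of the values was 4.55 for CD105high to CD105neg, 2.81 for CD105low to CD105neg and 1.62 for CD105high to CD105low. BMP6 thus separated all 3 libraries. On the value plus 1 scale its log2 ratios were 1.99, 1.33 and 0.66. It ranked 30th from the top of the 11343 measured genes for CD105high against CD105neg and 94th for CD105high against CD105low. With a pseudocount of 5 in place of 1 the last of these, at 0.55, no longer reached 1.5-fold.

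BMP4 did not follow the order of the sort. BMP4 (ENSG00000125378.15), the mesoderm-inducing ligand that was also supplied as protein in the medium, had 8.60 FPKM in the CD105neg library, 12.7 FPKM in CD105low and 5.49 FPKM in CD105high. It was highest in CD105low and lowest in CD105high. Its value in CD105low was 2.32 times that in CD105high (log2 ratio of CD105high against CD105low -1.08), which placed BMP4 29th from the bottom of the measured genes in that comparison. Against CD105neg, its log2 ratios of -0.57 for CD105high and 0.52 for CD105low both missed 1.5-fold. The first was past it with a pseudocount of 0.1, at -0.64.

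BMP2 was below BMP4 and BMP6 in every library. BMP2 (ENSG00000125845.6), the closest relative of BMP4, stood at 4.01, 3.72 and 2.70 FPKM in CD105neg, CD105low and CD105high. The log2 ratio of CD105high against CD105neg was -0.44, and no pair of libraries was 1.5-fold apart.

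The make-up of the transcripts of these 3 ligands differed between the libraries as well as their sum. BMP2, BMP4 and BMP6 together came to 17.8 FPKM in the CD105neg library, 31.0 FPKM in CD105low and 31.9 FPKM in CD105high. BMP6 made up 29.2%, 47.0% and 74.3% of these sums, BMP4 48.3%, 41.0% and 17.2%, and BMP2 22.5%, 12.0% and 8.49%. BMP4 was the most abundant of the 3 in CD105neg, and BMP6 in the other libraries. Within a library, where scaling between libraries plays no part, the ratio of BMP6 to BMP4 was 0.60 in CD105neg, 1.15 in CD105low and 4.31 in CD105high. With BMP5 and BMP10, the other measured BMP ligands, added to the sum after the values were seen, it came to 27.9, 37.8 and 36.9 FPKM, and the share of BMP6 to 18.7%, 38.6% and 64.2%. These are ratios of values per transcript length and say nothing of the amounts of secreted protein.

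**Figure D2:**
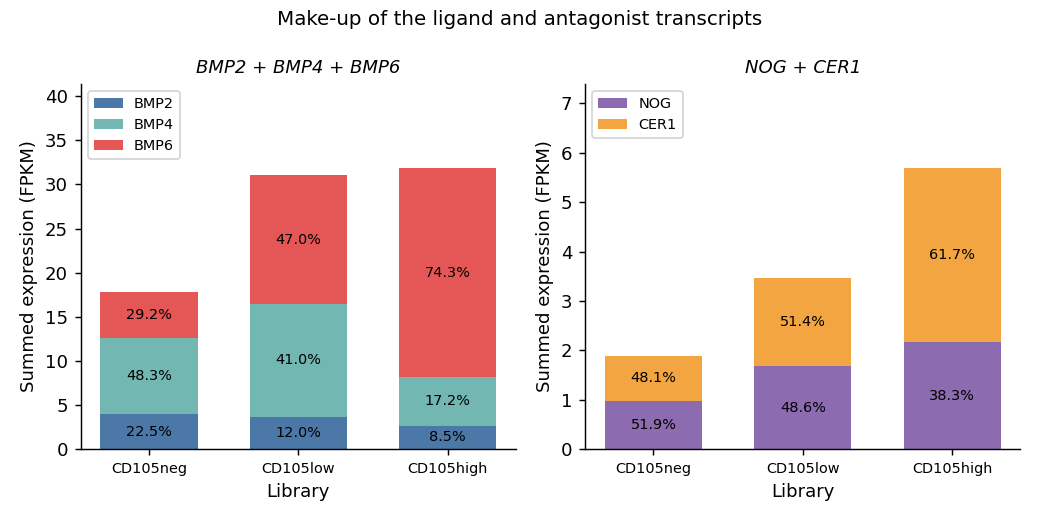
Summed FPKM (vertical axes, from 0) of BMP2, BMP4 and BMP6 on the left and of NOG and CER1 on the right in each of the 3 libraries, 1 library per bar, with the share of each gene printed in its segment. The BMP sums in CD105low and CD105high are alike at 31.0 and 31.9 FPKM, while the BMP6 segment goes from 47.0% to 74.3%.

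The TGF-beta ligands differed little. TGFB1 (ENSG00000105329.9), the main TGF-beta of endothelium and blood cells, stood at 9.84 FPKM in CD105neg and at 12.7 FPKM in both CD105low and CD105high. Its log2 ratio against CD105neg was 0.34 in each case, and that of CD105high against CD105low was -0.005 on the deposited scale and 0.10 after centring on the median gene, so its sign depends on the scaling. TGFB2 (ENSG00000092969.11), the TGF-beta of developing heart and mesenchyme, stood at 0.86, 0.93 and 0.86 FPKM, under 1 FPKM in every library. Its log2 ratio of CD105high against CD105neg was -0.006, and 0.09 after centring. TGFB1 exceeded TGFB2 11.4-fold, 13.8-fold and 14.8-fold in CD105neg, CD105low and CD105high. Both values carry a limit of annotation: 24.1% of the 50-base pieces of TGFB2 also occur in TGFB2-OT1, and 215 of the 3238 exon bases of TGFB1 overlap HNRNPUL1 on the other strand. The strand of the reads was not examined.

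The antagonists NOG and CER1 were low in every library and ascended with CD105. CER1 (ENSG00000147869.4) encodes cerberus, which binds NODAL and BMPs and is made by the anterior endoderm of the embryo. Its value was 0.91 FPKM in the CD105neg library, 1.78 FPKM in CD105low and 3.51 FPKM in CD105high. Nearly the same plain ratio separated each library from the next, 1.96 and then 1.97. The log2 ratio of CD105high against CD105neg on the value plus 1 scale was 1.24, the 136th from the top of the measured genes, and that of CD105high against CD105low was 0.70, the 83rd. With a pseudocount of 5 neither reached 1.5-fold (0.53 and 0.33).

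NOG (ENSG00000183691.4), which encodes noggin, the classical BMP antagonist, stood at 0.98, 1.68 and 2.18 FPKM in the same order. CD105neg was the lowest library and CD105high the highest. Its log2 ratios were 0.68 for CD105high, past 1.5-fold, and 0.44 for CD105low, not past it, each against CD105neg. With a pseudocount of 5 the former was 0.26. NOG and CER1 reached 1 FPKM through CD105low and CD105high alone, so the filter at 1 FPKM favoured a difference in this direction.

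The sources used here do not give the number of fragments behind these low values. In genes with a single annotated transcript, between 55.3% and 64.0% of the lowest values times transcript length were whole multiples of 0.5 of a fixed step, to within 0.1 of that spacing, where an even spread would give 20%. That step was 0.0130 (FPKM times kilobases) in the CD105neg library, 0.0117 in CD105low and 0.0125 in CD105high. Counted in those steps, the CER1 values came to 84.6, 184 and 342 steps, those of NOG to 142, 272 and 331, those of BMP6 to 1108, 3461 and 5281 and those of BMP2 to 1109, 1144 and 781. If those steps hold, both antagonists lay many steps above 0. A step was not shown to be 1 fragment, and no counting interval was derived from it.

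The extracellular modulator BMPER and the decoy receptor BAMBI were the most abundant members. BMPER (ENSG00000164619.8) encodes a BMP-binding protein of endothelial cells that can restrain or favour BMP4 signalling. Its value was 54.3 FPKM in the CD105neg library, 52.7 FPKM in CD105low and 40.2 FPKM in CD105high, above 92.4%, 91.9% and 89.7% of the measured genes. The difference lay between CD105high and the other libraries (log2 ratios -0.42 and -0.38) and was under 1.5-fold. Against the sum of BMP2, BMP4 and BMP6, BMPER stood at 3.05 in CD105neg, 1.70 in CD105low and 1.26 in CD105high. Against BMP4 alone it stood at 6.31, 4.14 and 7.32, lowest in CD105low and highest in CD105high.

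BAMBI (ENSG00000095739.10), a kinase-less receptor that dampens BMP and TGF-beta signals and is itself known as a target of both, stood at 71.6, 61.9 and 54.6 FPKM. The libraries descended in small steps, and the log2 ratio of CD105high against CD105neg was -0.39, under 1.5-fold. LTBP1 (ENSG00000049323.15), the latent TGF-beta binding protein, stood at 15.03, 19.5 and 17.9 FPKM. CD105neg was the lowest of its libraries, with a log2 ratio of 0.24 for CD105high and 0.35 for CD105low. The ratio of LTBP1 to TGFB1 within a library was 1.53, 1.53 and 1.41, so the 2 transcripts kept nearly the same proportion. Of the 7329 exon bases of LTBP1, 249 overlap AC019127.1 on the other strand, a gene without a value here.

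Counted over all 10 members, 3 were at least 1.5-fold higher in CD105high than in CD105neg (BMP6, CER1 and NOG) and 0 were lower, where 5.65% of the measured genes were higher and 6.88% lower. The median log2 ratio of the 10 was 0.11, against -0.09 for all measured genes. For the 9 measured members, which leave out TGFB2, it was 0.24. After centring on the median gene at or above 10 FPKM, the split over all measured genes went from 641 higher and 780 lower to 856 and 493, and the same count of 3 members was higher, with BMP6 at 2.09, CER1 at 1.34 and NOG at 0.78. Rescaling each library to a sum of 1000000 moves the log2 ratio of the plain values of this pair by 0.12. On the value plus 1 scale it moves low genes by more, to 1.78 for CER1, 1.07 for NOG and 2.25 for BMP6. Rescaling raises every value while the pseudocount stays at 1, so it also acts as a smaller pseudocount would.

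In CD105low against CD105neg, 1 of 10 members was higher (BMP6) and 0 were lower, with 4.13% of measured genes higher and 2.18% lower. The median was 0.35 for the 10 members and for the 9 measured ones, and 0.02 for all measured genes. CER1 and NOG joined BMP6 with a pseudocount of 0.1, at 0.90 and 0.72. In CD105high against CD105low, 2 members were higher (CER1 and BMP6) and 1 was lower (BMP4), with 1.18% of measured genes higher and 2.19% lower. The medians were -0.09 for the 10 members, -0.12 for the 9 measured ones and -0.10 for all measured genes. Centring turned the split over all measured genes in this pair from 134 higher and 248 lower to 209 and 151. Rescaling, which also acts as a smaller pseudocount would, gave 279 and 278. The comparisons share libraries, so a deviation of the CD105neg library would move both comparisons with it, and the members were listed with earlier results of these libraries known.

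**Figure D3:**
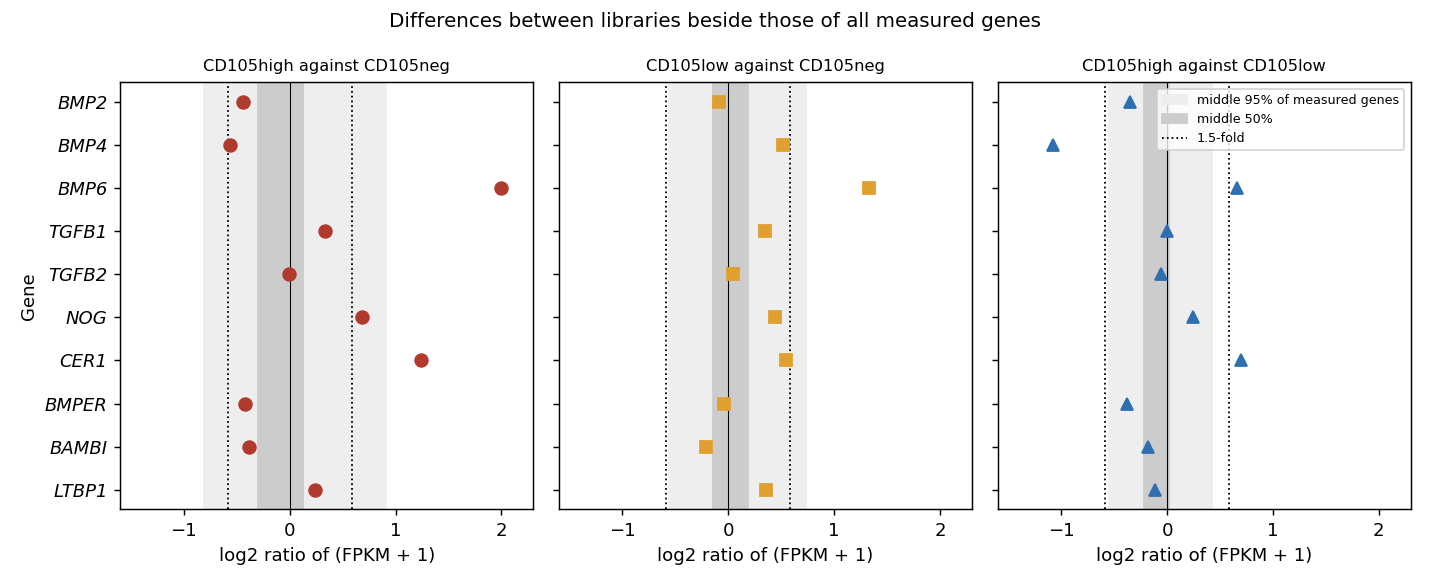
Log2 ratio of FPKM plus 1 (horizontal axes) for each of the 10 genes in the 3 comparisons, 1 point per gene, with the grey bands holding the middle 95% and 50% of the 11343 measured genes and dotted lines at 1.5-fold. BMP6 lies to the right of the wide band in every panel, BMP4 to its left for CD105high against CD105low at -1.08, and the TGFB2 points lie close to 0.

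Markers of other cell types were set beside these values. Their counts for CD105high against CD105neg are to be read beside the 5.65% of measured genes that were higher and the 6.88% that were lower. Unlike these shares, the counts cover every marker gene with a row, measured or not. Of the 9 blood genes 7 were measured, of the 9 mesenchymal and mural genes 7, and of the 5 endoderm genes with a row 3. The summed level of 9 blood genes was 67.9 FPKM in the CD105neg library, 26.2 FPKM in CD105low and 13.2 FPKM in CD105high, with 7 of the 9 lower in CD105high than in CD105neg and PTPRC, the pan-leukocyte gene, at 0.0038 FPKM in CD105neg and 0 in the other libraries. The 8 endothelial genes summed to 1283, 1719 and 1755 FPKM, with 7 higher. EGFL7, the endothelial gene not counted as higher, stood at 558, 630 and 528 FPKM and made up a large part of the sum. The endothelial sum ascended as BMP6, NOG and CER1 did and the blood sum descended, and their part in those differences was not tested. For CER1, a gene of endoderm, the endoderm list had 5 of its 7 genes analysed, of which 1 was higher and 2 were lower in CD105high than in CD105neg. The higher one, APOB, ascended as CER1 did (0.55, 0.88 and 1.34 FPKM), whereas APOA1 descended (5.65, 3.50 and 3.21 FPKM) and made up most of the summed level of 8.61, 6.29 and 5.60 FPKM. APOA2, the other gene counted as lower, descended as well (1.73, 1.56 and 0.64 FPKM). AFP and TTR were under 1 FPKM in every library, and the part of such cells in the CER1 difference was not tested. The mesenchymal and mural list summed to 269, 260 and 209 FPKM with 4 of 9 genes lower and 0 higher, and DCN at 0.0036 FPKM in CD105neg and 0 in the others. The cardiac list, with 4 of 6 genes analysed and 2 measured, summed to 13.2, 14.4 and 8.84 FPKM. Of its genes, 0 were higher and 0 lower in CD105high than in CD105neg. The cardiac list had its greatest sum in CD105low and its smallest in CD105high, as BMP4 did. That sum rested on MYL7 (5.39, 6.02 and 3.33 FPKM) and ACTC1 (7.16, 7.82 and 5.16 FPKM), each only slightly higher in CD105low than in CD105neg. TNNT2 ascended and MYH6 descended, both under 1 FPKM in every library. The part of the cardiac list in the BMP4 difference was not tested. Among all measured genes, 35.1% had their greatest value in CD105low.

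Other genes of the pathway were taken from 5 lists, whose counts for CD105high against CD105neg are to be read beside the 5.65% of measured genes that were higher, the 6.88% that were lower and the median of -0.09. TLL1 reached 1 FPKM through CD105high alone, GDF7 through CD105low and CD105high alone and ITGB3 through CD105neg alone, so that the filter favoured their differences. Of 28 further ligands, 7 were measured, of which 3 were lower and 1 was higher in CD105high than in CD105neg (GDF7, named after its values were seen), with a median log2 ratio of -0.35 against -0.09 for all measured genes. BMP10, a ligand of ALK1 and endoglin known from the heart, stood at 8.41, 5.22 and 3.79 FPKM in CD105neg, CD105low and CD105high. GDF15, a stress-induced member of the family, stood at 43.1, 27.7 and 22.8 FPKM, and GDF11 at 5.22, 3.38 and 2.72 FPKM. These 3 ligands descended where BMP6 ascended. The activin and nodal genes INHBA, INHBB and NODAL, named for their roles and not by the rule, were all under 1 FPKM.

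Of 20 further antagonists and modulators, 12 were measured, of which 3 were higher and 1 lower (median 0.03), where 5.65% of all measured genes were higher and 6.88% lower. TLL1, a protease that cuts the BMP antagonist chordin, stood at 0.22, 0.66 and 1.60 FPKM, and CRIM1, a membrane protein that binds BMPs, at 16.7, 27.5 and 30.8 FPKM. CHRD, which encodes chordin, had 3.38 FPKM in the CD105neg library, 3.45 FPKM in CD105low and 1.51 FPKM in CD105high. Like BMP4, it had its smallest value in CD105high. Its CD105low value was close to that in CD105neg (log2 ratio 0.02, against 0.52 for BMP4). The remaining gene counted as higher was SOST, named after its values were seen, at 49.3, 80.9 and 83.9 FPKM.

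Of 20 genes for storage and release of latent TGF-beta, 18 were measured, and 1 was higher and 2 were lower (median 0.07), shares close to the 5.65% and 6.88% of all measured genes. MMP14, a membrane protease that can free latent TGF-beta, stood at 89.0, 139 and 158 FPKM. LTBP3, a relative of LTBP1, stood at 2.38, 1.55 and 1.02 FPKM. ITGB3, an integrin chain of megakaryocytes, stood at 1.84, 0.45 and 0.24 FPKM, and 57.2% of its 50-base pieces occur in another gene, which makes its value uncertain.

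Of 20 names for receptors and co-receptors, 18 had a row and 15 were measured, of which 5 were higher and 0 lower in CD105high than in CD105neg (median 0.29), beside 5.65% and 6.88% of all measured genes. Besides ENG, on whose product the cells were sorted, BMPR2, a type II receptor, stood at 4.60, 9.34 and 12.1 FPKM, and ACVRL1, which encodes the endothelial type I receptor ALK1, at 56.4, 88.9 and 111 FPKM. These 3 ascended as BMP6 did. The other genes counted as higher, named after their values were seen, were ACVR2A at 3.12, 6.80 and 6.04 FPKM, with CD105low as its highest library, and TGFBR2 at 7.89, 11.2 and 13.1 FPKM. In CD105high against CD105low, ENG was the 1 receptor gene counted as higher, and the median of the list was -0.02.

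Of 28 names for intracellular regulators and target genes, 15 had a row and 14 were measured. The SMAD and ID genes were not analysed here, so the usual transcriptional readout of BMP signalling is missing. Of the 14, 4 were higher and 1 was lower (median 0.15), beside 5.65% and 6.88% of all measured genes. SKIL, which encodes a SMAD corepressor and is itself a TGF-beta target, stood at 17.8, 33.0 and 42.7 FPKM, COL4A1, a basement membrane collagen, at 118, 179 and 273 FPKM, and COL1A1, a fibrillar collagen of mesenchyme, at 21.4, 14.6 and 8.57 FPKM. The other genes counted as higher, named after their values were seen, were SMURF2 at 35.8, 54.9 and 60.8 FPKM and PMEPA1 at 1.38, 2.65 and 3.15 FPKM. The genes of this list thus differed in both directions, with COL1A1 as the 1 gene counted as lower.

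**Figure D4:**
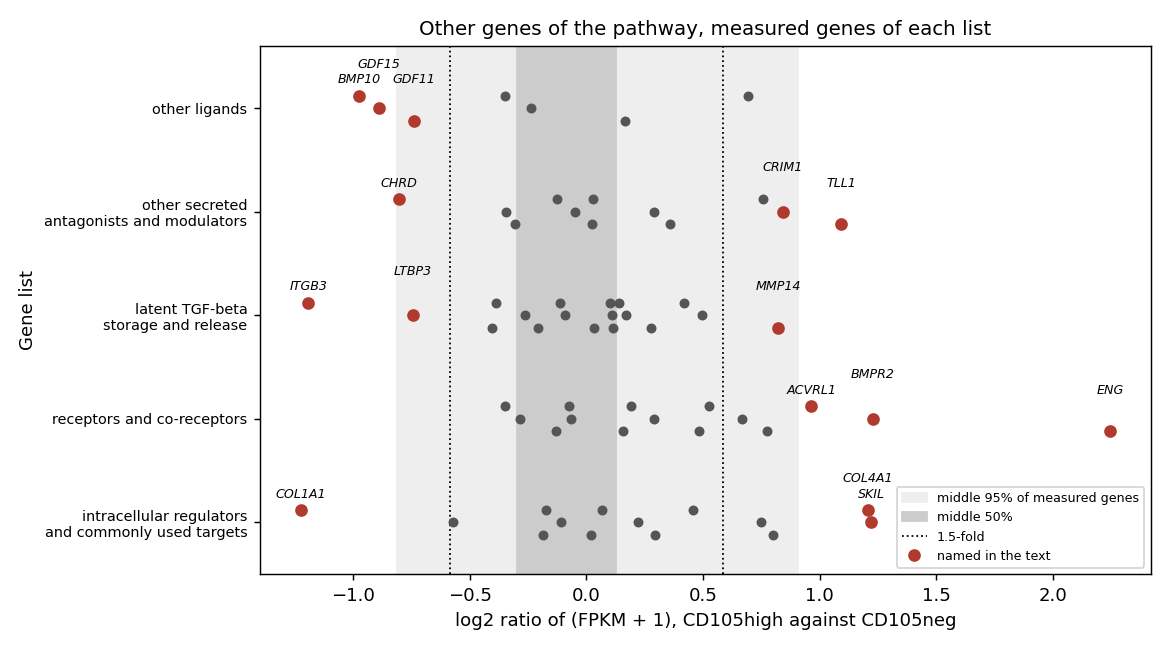
Log2 ratio of FPKM plus 1 for CD105high against CD105neg (horizontal axis) of the measured genes in 5 lists of other pathway genes, 1 point per gene, spread vertically for legibility alone, with grey bands for the middle 95% and 50% of all measured genes and dotted lines at 1.5-fold. Of the 15 receptor genes 5 lie beyond the right dotted line, among them ENG at 2.25, on whose product the cells were sorted. The named ligands BMP10, GDF15 and GDF11 lie to the left.

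The genes most like each member in level and pattern were found by the largest gap in log2(FPKM + 1) over the 3 libraries. With 3 values per gene this is a description and says nothing of shared function or control. BMP6 was closest to MAST4, at 5.11, 15.2 and 22.3 FPKM (gap 0.08), and then LRRC4 (gap 0.20), and 1 measured gene lay within 0.2 of it. CER1 was closest to the Notch receptor gene NOTCH4, at 0.82, 1.72 and 3.48 FPKM (gap 0.07), and then HNMT, with 4 genes within 0.2. BMP4 was closest to TXNDC15, at 7.90, 13.8 and 5.28 FPKM (gap 0.11), and then AP1M1, with 3 genes within 0.2. Few genes shared the profiles of these 3 members. The other measured members had between 43 and 175 genes within 0.2. The closest pairs were CSF2RB and TMEM51 for NOG, LCAT and DMKN for BMP2, XPR1 and GIT2 for TGFB1, PEBP1 and KARS for BAMBI, and GNG10 and ANKRD36 for LTBP1.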

How the data were processed

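The authors deposited 1 table per library with a gene identifier, a symbol and 1 value. The deposited values were treated as FPKM: no label or header names the unit, and TPM of which rows were left out could look the same. Per the submitters' processing notes, hg19, RSEM, BWA and Bowtie were used, with no version or role named; annotation and filters were not given in the sources used here. Per the labels' protocols, libraries took 2 ug of total RNA and a TruSeq kit. The strand of the reads was not examined.

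Ratios were computed with Python 3.11.15 and pandas 2.3.3 on FPKM plus a pseudocount of 1 and counted at 1.5-fold; the counting was tested on simulated data. Alternatives were pseudocounts of 0.1 and 5, centring on the median of the 5919 genes that reached 10 FPKM in any library, rescaling to a sum of 1000000, no filter, and a filter at 5 FPKM. Named genes were the 10 members, the 3 measured genes furthest from 0 in each list by the log2 ratio of CD105high against CD105neg, the 2 genes most like each measured member (those of BMPER are not reported here), and ENG, PECAM1 and CD34. BMP5, INHBA, INHBB, NODAL, GDF7, SOST, ACVR2A, TGFBR2, SMURF2, PMEPA1, EGFL7, PTPRC, DCN, AFP, TTR, APOB, APOA1 and APOA2 fall outside that rule and were named after their values were seen. The same holds for MYL7, ACTC1, TNNT2 and MYH6. The members and lists were chosen with earlier results of these data known. Steps were sought in single-transcript genes over 800 bases with value times kilobases under 0.12; between 55.3% and 64.0% of 270 to 300 values were whole numbers of half-steps to within 0.1, against 20% if spread evenly. Shared sequence was sought with 50-base pieces every 10 bases of GENCODE release 29 transcripts, and exon overlaps in that annotation, which is on another build than hg19; no coordinates of the files were used.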

Additional observations from a re-analysis of the deposited data

How the results depend on the processing

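No paired analysis was possible because each population has 1 library, and for the same reason no library could be left out. Of 120 member ratios recomputed under 4 alternatives, 111 kept their side of 1.5-fold, 9 crossed it and 0 of those called changed sign; 5 ratios of TGFB1 and TGFB2, all close to 0, changed sign with the scaling. With a pseudocount of 5, 1 member in place of 3 was higher in CD105high than in CD105neg, and 0 in place of 2 were higher in CD105high than in CD105low. With a filter at 5 FPKM, which keeps fewer genes, both of these counts were 1. With a pseudocount of 0.1, 1 member, BMP4, was lower in CD105high than in CD105neg, and 3 members in place of 1 were higher in CD105low than in CD105neg. Rescaling to the same sum, which also acts as a smaller pseudocount would, gave 3 as well for the latter. Over the 5 lists together, a pseudocount of 5 gave 9 higher and 3 lower in place of 14 and 7 for CD105high against CD105neg, 5 and 0 in place of 12 and 3 for CD105low against CD105neg, and 1 and 0 in place of 3 and 2 for CD105high against CD105low. With 0.1, 5 genes of the lists in place of 3 were lower in CD105low than in CD105neg, and 447 of all measured genes in place of 247. A larger pseudocount shrinks the ratio of low values by construction. The number of fragments is unknown, which limits NOG, CER1 and TGFB2 most.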
